A study of Homo sapiens with 12 samples.

Results

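The brush border of the intestinal cell line Caco-2 is described here through 31 genes: 11 hydrolases that stand on the microvillus surface, 11 membrane transporters of nutrients and ions, and 9 proteins of the microvillus scaffold. Each gene was represented by the probe set that the platform annotation gives to that symbol alone and, where there were several, by the one with the highest mean over the 12 arrays. All 31 genes were measured, among 19775 genes represented in the same way.

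Caco-2 is a human colon carcinoma cell line that, left confluent, forms a polarised layer with features of small intestinal enterocytes. Cells of passage 22 were differentiated for 21 days after confluence and then incubated for 24 h in serum-free medium with 1% insulin, transferrin and selenium supplement and 1% antibiotics, conditions that all 4 groups shared. Medium alone was the control, and the other groups received AgPURE, silver nanoparticles with a surfactant coat, at 2.5 µg/mL or 25 µg/mL, or silver ions as AgNO3 at 0.5 µg/mL, with 3 arrays in each group. The title of the study asks for the molecular mechanism of silver nanoparticles in these cells. Nothing in the labels says that replicate arrays are independent cultures; p-values therefore measure only array-to-array spread, possibly of technical origin. No group received the surfactant without silver, so particle and coat cannot be told apart, and the ions and the particles were given at different doses of silver.

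The brush border is the dense carpet of microvilli on the apical face of an absorptive enterocyte. Each microvillus holds a bundle of actin filaments, cross-linked by proteins such as villin and espin, tied to the membrane by myosin 1a and ezrin, and joined to its neighbours at the tip by protocadherins. Hydrolases anchored in this membrane finish the digestion of sugars, peptides and phosphate esters, and transporters beside them take up the products. Differentiated Caco-2 cells are a common model of it.

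Values are log2 array intensities as deposited, and a difference is a difference of log2 means, for which a fold is given beside it. A gene is called higher or lower where limma's adjusted p (Benjamini-Hochberg over all 19775 genes) was under 0.05. Over all 54675 probe sets, arrays of a group correlated at 0.9919 to 0.9958, and medium arrays correlated with 25 µg/mL arrays at 0.9780 to 0.9813. The 24 probe sets for poly-A control RNA read 0.61 higher on the 25 µg/mL arrays than on medium, and the 18 hybridization controls read 0.43 higher. Scaling the arrays to these controls moved the median difference of all genes at 25 µg/mL from -0.01 to -0.62 and -0.44, so every direction below is relative to the bulk of genes on the same array. Of 10 enterocyte markers, villin, CDH17 and EPCAM were bright, whereas in medium KRT20 (4.69) and FABP2 (4.18) lay below the median of all values (4.75). Of 5 leukocyte genes, LYZ (8.99), CD14 (5.93) and CSF1R (5.09) lay above that median in medium and PTPRC (3.99) and CD3E (4.64) below it. In bulk samples, fewer cells of a type and less RNA per cell cannot be told apart.

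At 25 µg/mL, 12 of the 31 brush border genes fell and 3 rose against medium. The background was 19.3% of all genes lower and 14.1% higher, and the members' shares were 38.7% lower and 9.68% higher. The members were chosen with earlier results of these data known, so their shares are descriptions. The median difference over the members was -0.27, against -0.01 over all genes. The 3 classes differed in their counts: the scaffold had 6 lower and 1 higher of 9 with a median of -0.50, the transporters 5 lower and 1 higher of 11 with a median of -0.37, and the hydrolases 1 lower and 1 higher of 11 with a median of -0.11. The difference between classes was not tested. Scaled to the poly-A or to the hybridization controls, the genes lower were 8 of the scaffold, 10 transporters and 9 hydrolases with either. With these scalings, 14081 and 12835 of all 19775 genes were lower, so most genes moved with the members. Averaging all probe sets per gene gave 3 transporters lower and a transporter median of -0.16, where 3537 of all 19775 genes were lower. Leaving out each array in turn gave hydrolase medians of -0.14 to -0.046. Signal level moved with this order: by the mean over the 12 arrays, all 9 scaffold genes lay above the median of all values, as did 8 of 11 transporters but only 4 of 11 hydrolases. That mean includes the arrays of every group, and SLC2A2 and ALPI, which are counted above the median, lay below it at 25 µg/mL. Of the 12640 genes with that mean above the median of all values, 28.4% were lower and 19.5% higher. Of the 21 members among them, 57.1% were lower and 14.3% higher. Class medians over these 21 were -0.32 for hydrolases, -0.41 for transporters and -0.50 for the scaffold. The part of signal level in the class order was not tested. Between medium and 25 µg/mL, 15 members had all arrays lower and 4 had all arrays higher with no overlap, where 25.9% and 19.8% of all genes did.

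**Figure D1:**
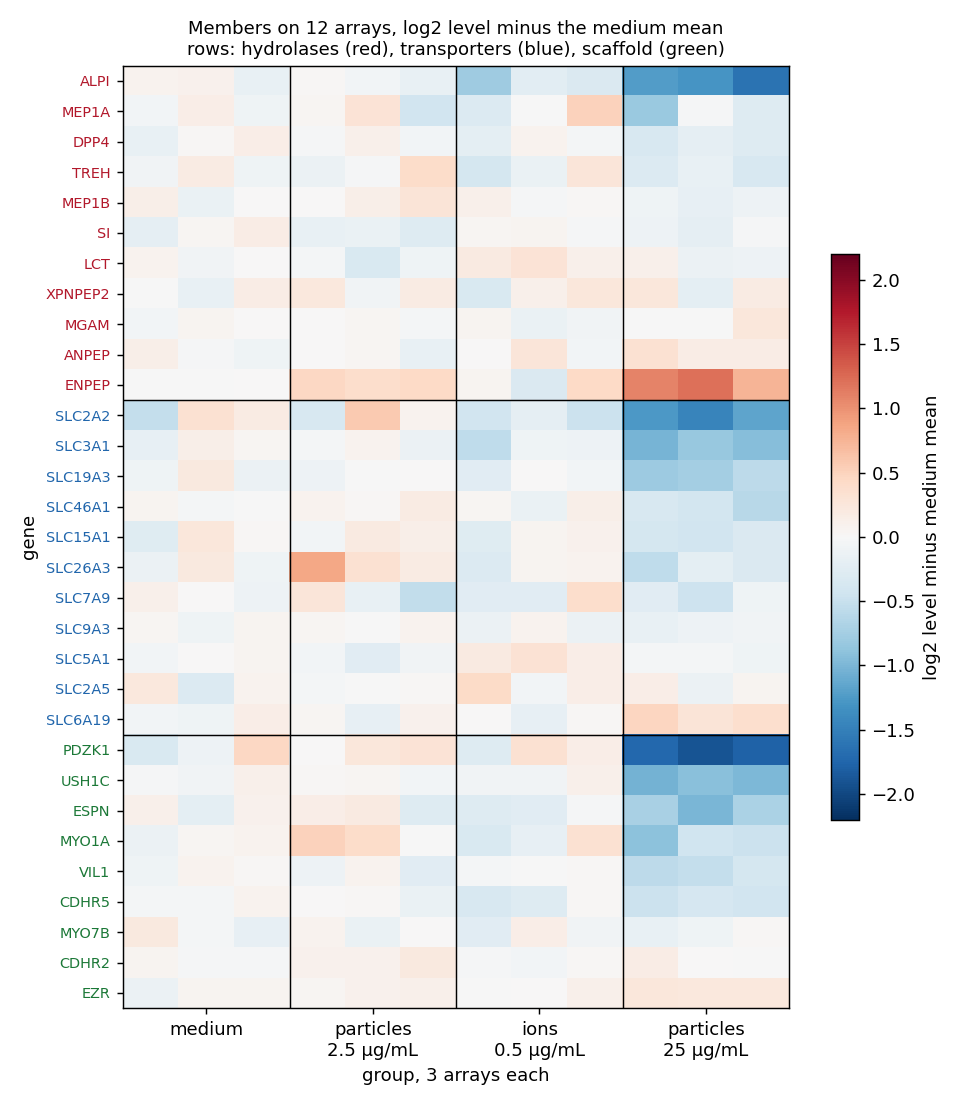
Log2 level of each of the 31 genes on each of the 12 arrays minus that gene's mean over the medium arrays, with rows grouped by class and columns by group. Blue cells, below the medium mean, gather in the scaffold and transporter rows of the 3 arrays at 25 µg/mL, where PDZK1 reaches the lowest values and ENPEP the highest.

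**Figure D2:**
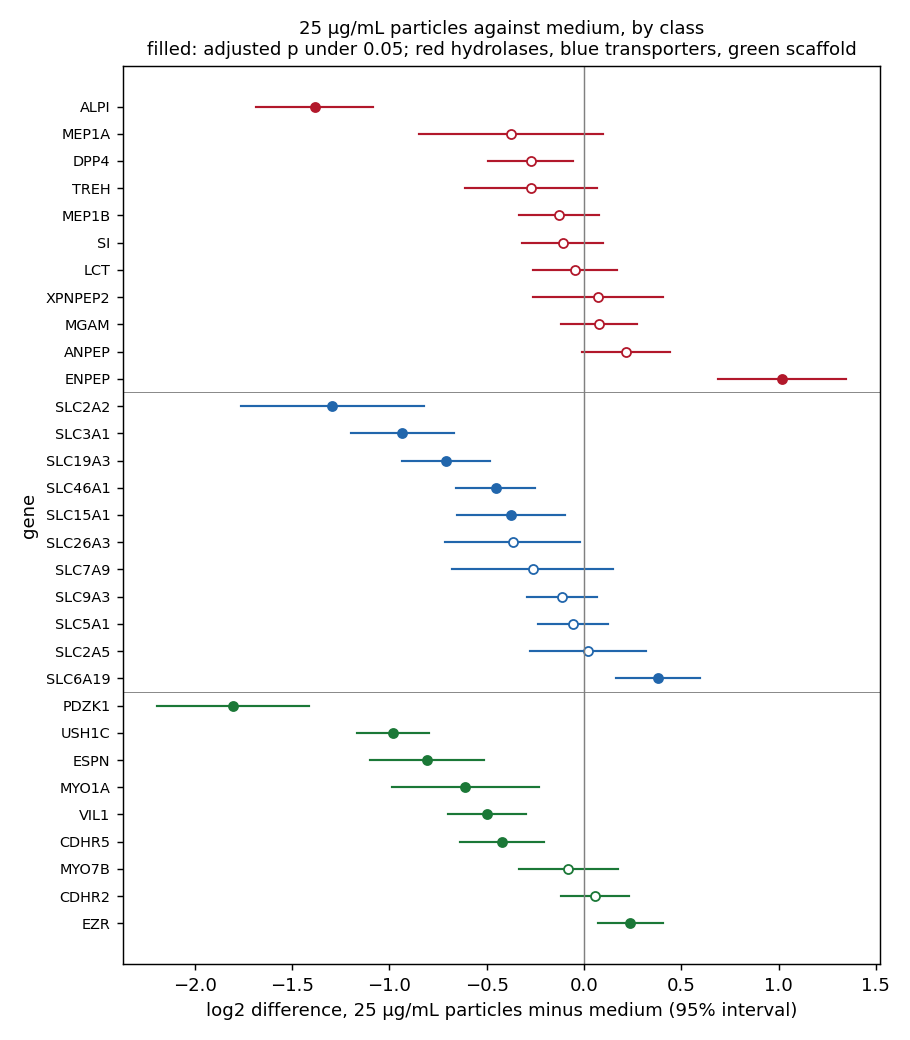
Log2 difference of 25 µg/mL nanoparticles minus medium for each gene (points) with its 95% confidence interval (bars) from limma, by class; filled points are called. Intervals of 12 called genes lie below 0 and those of ENPEP, SLC6A19 and EZR above it; on control-RNA scaling SLC6A19 and EZR turn below 0.

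Promoter sequence was read from RefSeq (assembly GRCh38.p14) for the 25 members with an entry there, as the 250 bases before the annotated gene start. The gene with the largest change in each class is shown first, and then the hydrolase and the transporter that rose, which were picked after their values were seen. Capitals mark letters searched on both strands: TTTATG or TTTATT for CDX, AGATAA for GATA factors, CAAAGT for HNF4, TATAAA for a TATA box and TTCNNGAA for a heat shock element. A sequence with no capitals held none of them.
PDZK1: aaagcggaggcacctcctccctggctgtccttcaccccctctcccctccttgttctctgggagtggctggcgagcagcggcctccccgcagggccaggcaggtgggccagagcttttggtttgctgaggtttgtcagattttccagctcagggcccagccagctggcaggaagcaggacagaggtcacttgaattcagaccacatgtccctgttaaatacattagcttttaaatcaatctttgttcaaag
SLC2A2: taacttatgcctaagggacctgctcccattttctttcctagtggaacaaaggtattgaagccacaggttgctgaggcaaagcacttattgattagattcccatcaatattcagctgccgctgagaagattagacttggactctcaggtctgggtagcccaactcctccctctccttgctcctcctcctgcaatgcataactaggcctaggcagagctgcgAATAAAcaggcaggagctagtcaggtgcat
ALPI: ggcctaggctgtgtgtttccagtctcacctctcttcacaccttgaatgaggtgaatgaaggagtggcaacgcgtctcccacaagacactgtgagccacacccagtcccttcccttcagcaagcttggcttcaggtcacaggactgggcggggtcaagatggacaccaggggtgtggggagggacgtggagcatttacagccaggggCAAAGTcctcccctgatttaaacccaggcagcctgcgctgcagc
ENPEP: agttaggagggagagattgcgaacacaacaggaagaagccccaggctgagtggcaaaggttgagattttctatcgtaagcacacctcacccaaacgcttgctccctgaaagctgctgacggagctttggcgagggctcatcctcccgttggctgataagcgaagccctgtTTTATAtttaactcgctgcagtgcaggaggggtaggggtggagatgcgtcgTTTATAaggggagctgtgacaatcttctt
SLC6A19: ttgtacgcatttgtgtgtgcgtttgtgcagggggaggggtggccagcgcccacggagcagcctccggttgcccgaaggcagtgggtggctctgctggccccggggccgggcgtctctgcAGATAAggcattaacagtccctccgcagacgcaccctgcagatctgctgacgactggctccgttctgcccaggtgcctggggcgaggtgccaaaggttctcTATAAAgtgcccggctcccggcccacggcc
The PDZK1 stretch lies at chr1:145707401-145707650 on the minus strand, and SLC2A2 at chr3:171026721-171026970 on the minus strand. ALPI lies at chr2:232455903-232456152, ENPEP at chr4:110475905-110476154 and SLC6A19 at chr5:1201345-1201594, all on the plus strand. Counted back from the start, with -1 the last base before it, SLC2A2 carries the CDX letters at -30 to -25 on the other strand, and ALPI the HNF4 letters at -44 to -39. ENPEP has TATA box letters on the other strand at -80 to -75 and -29 to -24. SLC6A19 has GATA letters at -131 to -126 and TATA box letters at -30 to -25. No matches overlap in these 5 stretches. The HNF4 letters were in 5 of the 25 member promoters (20%), against 10.4% of 27305 promoters of this length. For CDX the shares were 28% and 23.2%, for GATA 12% and 9.37%, for the TATA box 16% and 11.1%, and for the heat shock element 4% and 6.72%. Of the 8 members that fell and had an entry, 3 held the CDX letters, 1 the GATA letters and 1 the HNF4 letters. Of the 14 that were not called, 4 held the CDX letters, 1 the GATA letters and 4 the HNF4 letters. For the 3 that rose these counts were 0, 1 and 0. A match is a description of letters, not a bound site.

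The scaffold contained the largest change of all 31 genes. PDZK1, an adaptor whose PDZ domains hold transporters under the apical membrane, read 9.72, 9.94 and 10.51 in medium and 8.32, 8.16 and 8.28 at 25 µg/mL. At 2.5 µg/mL it read 10.06, 10.30 and 10.36, and with ions 9.76, 10.40 and 10.20. Every array at 25 µg/mL was below every other array. Its mean fell from 10.05 ± 0.41 to 8.25 ± 0.09 (SD, n = 3 each), a difference of -1.80 (SE 0.18, 95% interval -2.19 to -1.41) or 3.49-fold, with limma's adjusted p of 3.5e-06.

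USH1C, or harmonin, the scaffold that gathers the protocadherins at microvillus tips, gave the tightest fall. It read 7.77, 7.72 and 7.91 in medium and 6.76, 6.89 and 6.80 at 25 µg/mL, while the arrays of the other 2 groups stayed between 7.72 and 7.91. The difference was -0.98 (SE 0.09), a 1.98-fold decrease with an adjusted p of 9.2e-07 by limma. Another probe set gave -1.13 and was called, and the remaining one gave -0.14 and was not. CDHR5, a protocadherin of the same complex, read 5.36, 5.34 and 5.48 in medium and 4.92, 5.02 and 4.98 at 25 µg/mL (-0.42, SE 0.10, adjusted p 0.0044). Its partner CDHR2 (0.06, 95% interval -0.12 to 0.23) and the tip motor MYO7B (-0.08, -0.34 to 0.18) were not called.

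Transcripts of both bundling proteins among the members, VIL1 and ESPN, were lower. VIL1, villin, which bundles and severs actin, read 10.28, 10.45 and 10.40 in medium and 9.80, 9.85 and 9.98 at 25 µg/mL, a difference of -0.50 (SE 0.09, adjusted p 0.00073). All 4 of its probe sets were called lower, by -0.67 to -0.33. ESPN, espin, another bundling protein, read 6.01, 5.70 and 6.01 against 5.19, 4.90 and 5.21, a difference of -0.80 (SE 0.14, adjusted p 0.00033); its other 2 probe sets gave -0.02 and -0.21 and were not called. In neither gene did the arrays at 25 µg/mL overlap with medium.

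MYO1A and EZR encode proteins that link the bundle to the membrane. MYO1A, the motor that bridges bundle and membrane, read 5.32, 5.50 and 5.54 in medium and 4.55, 5.01 and 4.97 at 25 µg/mL, a fall of 0.61 on the log2 scale (SE 0.18, adjusted p 0.014). Dropping medium replicate 3 or 25 µg/mL replicate 1 ended the MYO1A call (adjusted p 0.052 and 0.076). EZR, ezrin, which joins actin to membrane proteins, read 10.53, 10.71 and 10.71 in medium and 10.89, 10.88 and 10.89 at 25 µg/mL, a difference of 0.24 (SE 0.08, adjusted p 0.03) that turned to -0.37 and -0.19 under scaling to the poly-A and hybridization controls. Of its 5 probe sets, all were above 0 and 3 were called higher when every probe set was tested. Dropping medium replicate 1 ended the EZR call (adjusted p 0.14), as did dropping 25 µg/mL replicate 1 (0.072), 2 (0.070) or 3 (0.068).

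**Figure D3:**
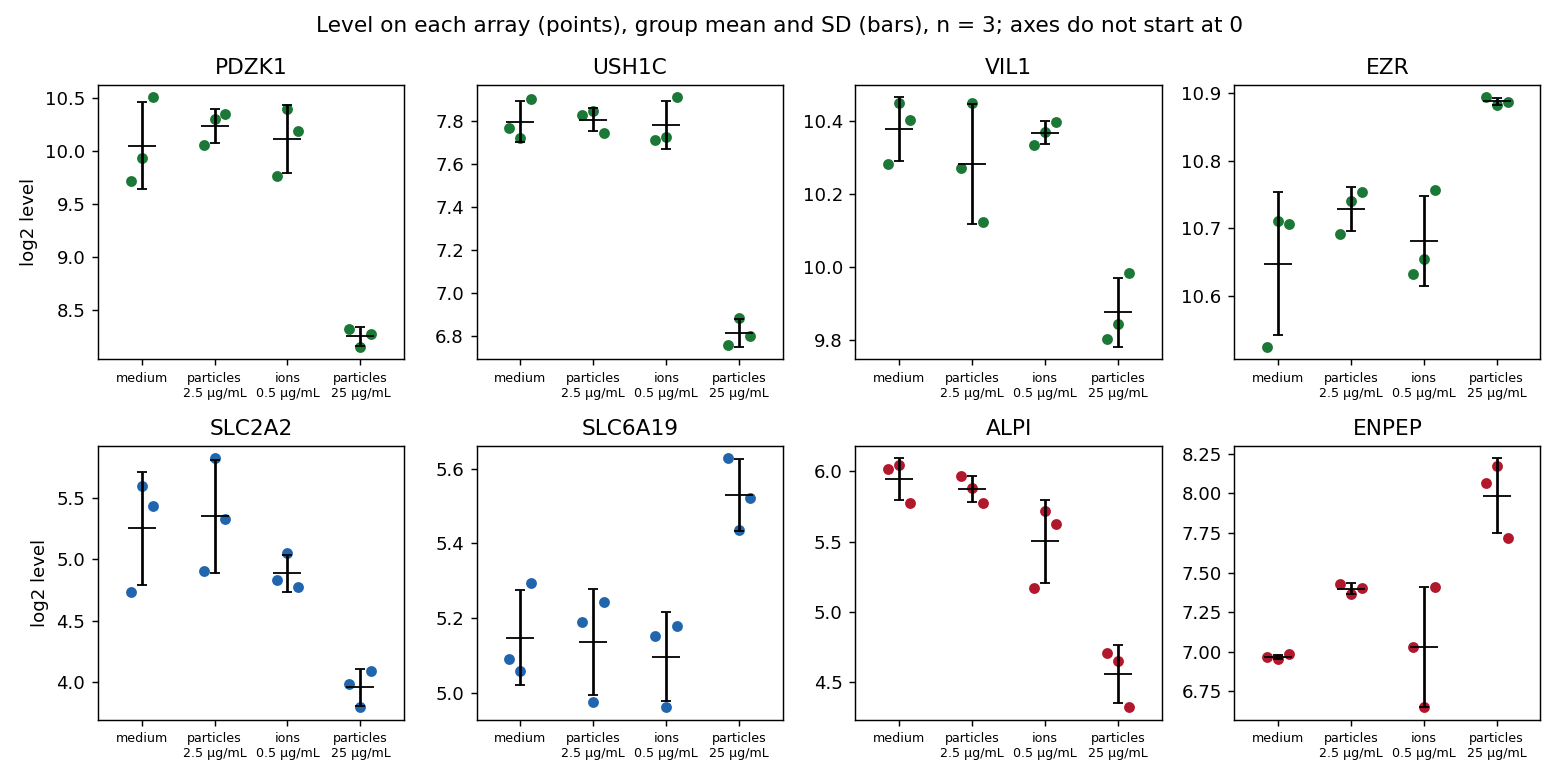
Log2 level on each of the 12 arrays (points) with the group mean and SD (bars) for 8 genes of the 3 classes. The 25 µg/mL arrays of PDZK1, USH1C, ALPI and SLC2A2 lie below the medium arrays, and those of ENPEP lie above them.

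Among the transporters, SLC2A2 changed most. SLC2A2 encodes GLUT2, a facilitative carrier of glucose and fructose that serves mainly the basolateral exit and is also found at the apical side. It read 4.73, 5.60 and 5.43 in medium and, with 25 µg/mL, 3.99, 3.80 and 4.10. The lower dose gave 4.90, 5.82 and 5.33, and the ions 4.83, 5.05 and 4.77. The mean went from 5.25 ± 0.46 to 3.96 ± 0.15 (SD, n = 3 each) at the higher dose, where no array overlapped with any other group. The difference was -1.29 (SE 0.22), a 2.45-fold decrease with an adjusted p of 0.00033 by limma. The 25 µg/mL arrays lay below the median of all values (4.75), where signal may be background, so the size of the fall is uncertain. The other sugar carriers had small differences: -0.06 (95% interval -0.23 to 0.12) for SLC5A1, the sodium-glucose cotransporter SGLT1, which lay below the median of all values, and 0.02 (-0.28 to 0.32) for SLC2A5, the fructose carrier GLUT5. A further SLC2A5 probe set gave -0.47 and was called lower, so its probe sets disagree.

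Amino acid and peptide carriers were mixed. SLC3A1, the heavy chain of the cystine and dibasic amino acid exchanger, read 6.70, 7.01 and 6.92 in medium and 5.85, 6.05 and 5.94 at 25 µg/mL, a difference of -0.93 (SE 0.12, adjusted p 3.8e-05). Its light chain partner SLC7A9 differed by -0.26 (95% interval -0.68 to 0.15) and was not called. Both other SLC3A1 probe sets were dim (means of 3.98 and 3.19) and differed by -0.05 and -0.02. SLC15A1, the proton-coupled peptide carrier PEPT1, read 5.47, 5.98 and 5.77 in medium and 5.35, 5.32 and 5.42 at 25 µg/mL (-0.37, SE 0.13, adjusted p 0.036). Dropping medium replicate 2 or 3 ended the SLC15A1 call (adjusted p 0.17 and 0.094), as did dropping 25 µg/mL replicate 1, 2 or 3 (0.083, 0.097 and 0.059), and its other probe set gave 0.14. SLC6A19, the sodium-dependent carrier of neutral amino acids, read 5.09, 5.06 and 5.29 in medium and 5.63, 5.44 and 5.52 at 25 µg/mL, 0.38 higher (SE 0.10, adjusted p 0.0089), and turned to -0.23 and -0.046 under poly-A and hybridization control scaling. Its other probe sets gave 0.35 (adjusted p 0.067) and 0.01 (0.96), so 1 of 3 was called.

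The vitamin carriers both fell. SLC19A3, the thiamine carrier, read 8.78, 9.09 and 8.75 in medium and 8.08, 8.13 and 8.30 at 25 µg/mL, a difference of -0.71 (SE 0.11, adjusted p 0.00011), and its second probe set gave -0.82. SLC46A1, the proton-coupled folate carrier, read 8.46, 8.37 and 8.39 in medium and 8.06, 8.01 and 7.79 at 25 µg/mL (-0.45, SE 0.10, adjusted p 0.0018). Of 4 SLC46A1 probe sets this one was called, and the dimmest differed by 0.06. The ion exchangers SLC26A3 (chloride and bicarbonate; -0.37, 95% interval -0.72 to -0.02, adjusted p 0.10) and SLC9A3 (sodium and proton; -0.11, -0.29 to 0.07) were dim and not called.

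The hydrolases held a large fall and a large rise. ALPI, intestinal alkaline phosphatase, which removes phosphate from luminal substrates including lipopolysaccharide, read 6.02, 6.04 and 5.77 in medium and 4.71, 4.65 and 4.32 at 25 µg/mL. At 2.5 µg/mL it read 5.96, 5.88 and 5.78, and with ions 5.17, 5.72 and 5.62. The mean went from 5.94 ± 0.15 to 4.56 ± 0.21 (SD, n = 3 each), a difference of -1.38 (SE 0.14, 95% interval -1.68 to -1.08) or 2.61-fold. The adjusted p by limma was 3.6e-06. The 25 µg/mL arrays again lay below the median of all values, so the size of the fall is uncertain. A second, dim probe set (mean 4.01) gave -0.21 and was not called. ALPI shares much sequence with the placental-type phosphatase genes, so its signal may include theirs.

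ENPEP, aminopeptidase A, which removes acidic residues from the start of peptides such as angiotensin II, was the only hydrolase that rose. It read 6.97, 6.96 and 6.98 in medium. The lower particle dose gave 7.43, 7.36 and 7.40, the higher dose 8.06, 8.17 and 7.72, and the ions 7.03, 6.65 and 7.41. The medium, 2.5 µg/mL and 25 µg/mL arrays did not overlap, and the ion arrays spanned the range of medium and part of that of 2.5 µg/mL. At 25 µg/mL the difference was 1.02 (SE 0.15, 95% interval 0.69 to 1.34), a 2.02-fold increase with an adjusted p of 0.00012, and the second probe set gave 0.96. Scaled to the poly-A controls, the difference was 0.40 (adjusted p 0.10), and ENPEP was no longer called. With the same scaling, its mean at 25 µg/mL fell below that at 2.5 µg/mL.

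DPP4, the dipeptidyl peptidase that cuts after proline and alanine, read 9.56, 9.74 and 9.86 in medium and 9.37, 9.53 and 9.45 at 25 µg/mL, a difference of -0.27 (95% interval -0.49 to -0.06, adjusted p 0.051). Dropping medium replicate 1 (-0.35, adjusted p 0.023), ion replicate 1 (0.035) or ion replicate 2 (0.047) brought DPP4 under the threshold, and 2 hydrolases were then lower. MEP1A, the alpha subunit of the protease meprin, differed by -0.38 (-0.85 to 0.10). Among the disaccharidases, SI (sucrase-isomaltase) differed by -0.11 (-0.32 to 0.10), LCT (lactase) by -0.05 (-0.26 to 0.17), MGAM (maltase-glucoamylase) by 0.08 (-0.12 to 0.27) and TREH (trehalase) by -0.27 (-0.61 to 0.07). The peptidases ANPEP (aminopeptidase N; 0.22, -0.01 to 0.44) and XPNPEP2 (aminopeptidase P; 0.07, -0.26 to 0.40) and the meprin subunit MEP1B (-0.13, -0.33 to 0.08) were not called either. All of these except DPP4 and MEP1A lay below the median of all values, where array signal cannot separate a low level from background. Another ANPEP probe set gave -0.39 and was called lower, so its probe sets disagree.

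**Figure D4:**
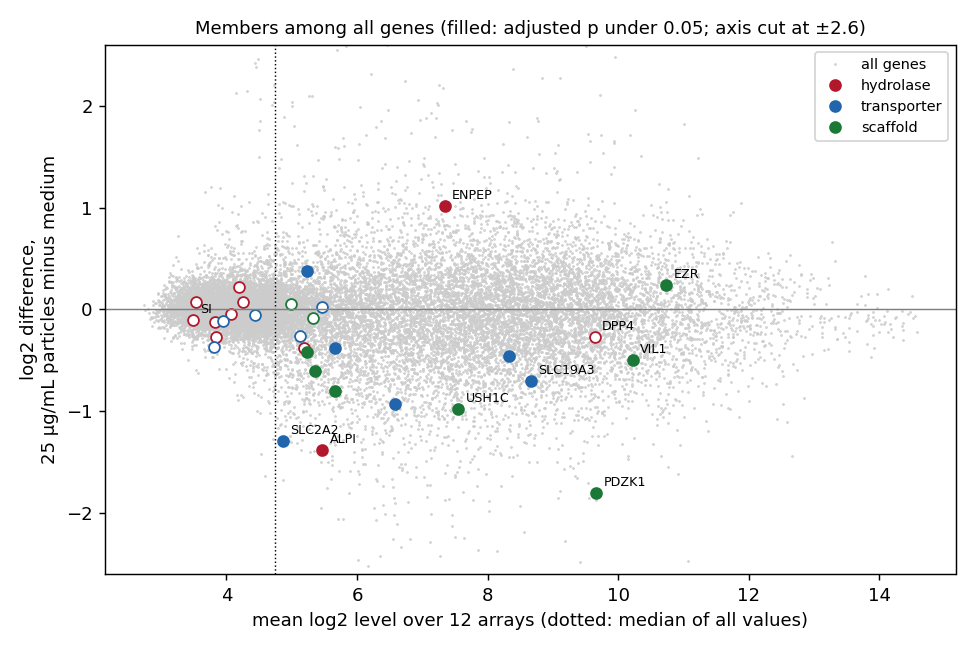
Mean log2 level over the 12 arrays (x axis) against the log2 difference of 25 µg/mL nanoparticles minus medium (y axis) for the 31 genes over all genes in grey, with the median of all values (4.75) marked. The 10 genes to the left of that line, 7 of them hydrolases, lie between -0.37 and 0.22; the mean includes the 25 µg/mL arrays.

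Related genes outside the 31 were listed by role. These lists and the marker lists below were chosen with earlier results of these data known. Their shares are therefore descriptions, not independent tests. Of 25 other scaffold genes measured, 10 were lower and 7 higher with a median of -0.11 (40% and 28%, against 19.3% and 14.1% of all genes). Lower were the tip complex genes ANKS4B (-1.02) and CALML4 (-0.98), and EPS8L2, an actin-capping relative (-0.74). Higher was the ezrin kinase STK10 (0.77, and 0.15 under poly-A scaling). Of 32 other apical transporters, 7 were lower and 8 higher with a median of -0.02. The share lower, 21.9%, was near the 19.3% of all genes, and the share higher was 25%. Called were the ascorbate carrier SLC23A1 (-2.25), the drug efflux pump ABCB1 (-0.81), the efflux pump ABCG2 (0.74) and the anion exchanger SLC26A6 (0.75), among others. Of 8 other apical hydrolases, 12.5% were lower and 12.5% higher, below the shares of all genes: ACE was lower (-0.32) and GGT1 higher (0.39, but -0.22 and -0.04 after scaling to the 2 kinds of control).

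The basolateral face and the regulators were counted in the same way. Of 18 basolateral genes 7 were lower and 3 higher (38.9% and 16.7%), the largest falls being the sodium pump regulator FXYD3 (-1.35), the bile acid exporter subunit SLC51B (-1.02), the iron exporter SLC40A1 (-0.97) and the efflux pump ABCC3 (-0.77). Of 20 transcription regulators of enterocytes 8 were lower (40%) and 0 higher with a median of -0.16. These included PPARA (-0.83), the fatty acid sensor, ELF3 (-0.80), an epithelial ETS factor, SMAD4 (-0.71) and MAF (-0.61). CDX2, the intestinal homeobox factor, picked after its values were seen, differed by -0.44 (adjusted p 0.016).

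Markers of cell types were counted beside these genes, with 19.3% of all genes lower and 14.1% higher. Of 10 enterocyte markers 5 were lower (50%) and 0 higher, led by RBP2 (-1.98), the retinol-binding protein, and FABP1 (-1.59), the fatty acid-binding protein. The list holds the member VIL1, the regulators CDX1 and CDX2, and the basolateral genes CDH17 and EPCAM, so these counts overlap. The mean level of the 10 markers per array was 7.66 to 7.77 in medium and 7.20 to 7.24 at 25 µg/mL. Of 8 hepatocyte genes, 7 of which lay above the median of all values in every group, 5 were lower (62.5%), including ALB (-2.48), and the list's mean per array was 8.79 to 9.18 in medium and 8.04 to 8.27 at 25 µg/mL. Of 10 colonocyte markers 2 were lower, GUCA2A (-1.59) and SLC26A2 (-0.89), and of 9 goblet markers 1 was lower, shares of 20% and 11.1% that are near or below that of all genes. Of the 8 enteroendocrine markers 1 was higher, CCK (2.72). Of 7 stem and proliferation genes 2 were lower, of 6 fibroblast genes 2 were lower and 2 higher, and of 5 leukocyte genes 2 were lower. The part of these shifts in the brush border counts was not tested.

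At 2.5 µg/mL no brush border gene was called by limma, and neither was any of the 19775 genes (0%). At an unadjusted p under 0.05 there were 2 members, against 900 of all genes (4.55%). These were ENPEP, 0.43 higher with no overlap (p 0.014, adjusted 1.00), and SLC26A3, 0.45 higher (p 0.015), which at 2.5 µg/mL read 4.64, 4.12 and 3.99 against 3.67, 4.02 and 3.71. The 95% intervals of the 31 differences ran from -0.56 (SLC7A9) to 0.80 (SLC26A3). PDZK1, USH1C and VIL1 had means of 10.24 ± 0.16, 7.81 ± 0.05 and 10.28 ± 0.16 (SD, n = 3 each), beside medium means of 10.05, 7.80 and 10.38.

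Silver ions at 0.5 µg/mL called 0 members and 0% of all genes by limma. At an unadjusted p under 0.05 there were 2 members, against 1233 of all genes (6.24%). ALPI was 0.44 lower with no overlap (unadjusted p 0.0071, adjusted 0.78), and SLC5A1, at 4.63, 4.74 and 4.57 against 4.36, 4.44 and 4.48, was 0.22 higher (unadjusted p 0.02). The 95% intervals ran from -0.84 (SLC2A2) to 0.54 (MEP1A). Ion replicate 1 was the lowest of its group for the transporters (class median -0.24 relative to the medium mean) and the scaffold (-0.25), where the other ion arrays lay between -0.07 and 0.08. Between 2.5 µg/mL nanoparticles and ions, limma called 0 members and 0 genes, with 6 members and 1735 genes (8.77%) at an unadjusted p under 0.05.

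**Figure D5:**
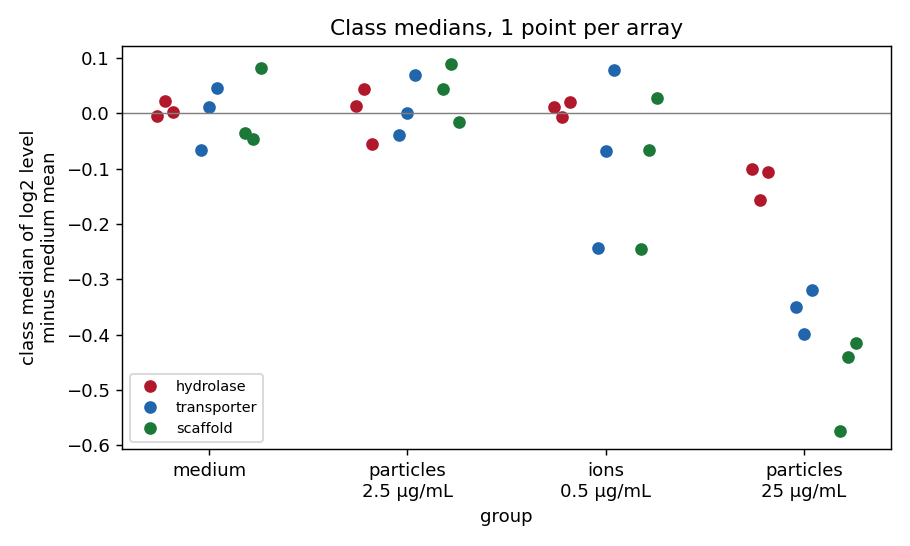
Median over the genes of each class of the log2 level minus the medium mean, 1 point per array, for hydrolases, transporters and scaffold. The 3 arrays at 25 µg/mL lie between -0.10 and -0.16 for hydrolases, -0.32 and -0.40 for transporters and -0.42 and -0.57 for the scaffold.

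The 25 µg/mL group was also set against the other silver exposures. Against 2.5 µg/mL, 15 members were lower and 2 higher, where 20.3% of all genes were lower and 13.7% higher. This count includes SLC26A3 (-0.82), DPP4 (-0.28, adjusted p 0.045) and MEP1B (-0.27, adjusted p 0.038), which were not called against medium. SLC26A3 (mean 3.81) and MEP1B (3.83) lay below the median of all values, where signal may be background. Of the 21 members above that median, 13 were lower, where 29.9% of genes above it were. Against ions, whose dose of silver differed, 11 members were lower and 2 higher, where 18.6% and 13.7% of all genes were. SLC5A1, which also lay below the median of all values, was among those lower (-0.27, adjusted p 0.02). ALPI differed by -0.94, and CDHR5 and SLC15A1 were not called. The 3 comparisons share the 25 µg/mL arrays. Lower in each of them were ALPI, ESPN, MYO1A, PDZK1, SLC19A3, SLC2A2, SLC3A1, SLC46A1, USH1C and VIL1, 10 genes in all. Higher in each were ENPEP (0.59 against 2.5 µg/mL and 0.96 against ions) and SLC6A19 (0.39 and 0.43). Under poly-A scaling neither gene was called higher in any of the 3 comparisons. Against medium, SLC6A19 turned below 0 under both control scalings. Against 2.5 µg/mL, poly-A scaling moved the median of all genes to -0.75, a larger shift than the ENPEP rise of 0.59. ENPEP therefore also turned below 0 in that comparison.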

How the data were processed

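RNA of 12 samples (3 per group) was measured on expression arrays of 1 colour. Per the submitters' processing notes, the authors used RMA and Partek; their versions were not given in the sources used. The deposited values are on a log2 scale, without centring, and higher means more signal; no detection calls come with them. The table holds 54675 probe sets, of which 62 are controls, 41091 have 1 gene symbol in GEO's platform annotation, 1801 several and 11721 none listed. Symbols were updated through the gene ID.

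The 19775 genes were each represented by the probe set with the highest mean over the 12 arrays. limma 3.58.1 in R 4.3.3 fitted 1 mean per group over all 4 groups, with empirical Bayes moderation, 8 residual and 6.25 prior degrees of freedom, and Benjamini-Hochberg adjustment over all genes of a comparison. The fit was tested on simulated data. Intervals are 95% and come from the moderated fit. Figures were drawn with matplotlib 3.10.9. The number of arrays limits the precision.

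The 31 members and the lists of related genes and markers were chosen with earlier results of these data known. Of the members 12 have 1 probe set and 19 several, 67 in all, and a probe set shared by ESPN and ESPNP was left out. All 31 members are described, and of each related list up to 4 called genes with the largest differences are named. Promoter stretches come from RefSeq and stop at the annotated start, and 1 further motif is not reported here. Alternatives tried were quantile normalization, median centring, scaling to the poly-A or hybridization controls, dropping genes below the median of all values, another probe set or the mean of probe sets, trend and array weights, other thresholds and leaving out each array.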

Additional observations from a re-analysis of the deposited data

Results flagged for a closer look

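Control probe sets, which measure no gene of the brush border and served above only for scaling, read higher on the 25 µg/mL arrays than on medium. The 24 poly-A control probe sets averaged 0.613 higher (log2), with arrays at 5.56 to 6.31 against 5.31 to 5.54 in medium. The 18 hybridization controls averaged 0.427 higher, at 10.89 to 11.08 against 10.43 to 10.66. The 6 ribosomal RNA probe sets averaged 0.643 higher, at 10.50 to 10.64 against 9.76 to 10.03. In each the groups did not overlap, and the exact permutation test (two-sided) gave p = 0.1, the smallest that 3 arrays against 3 allow. At 2.5 µg/mL the differences from medium were -0.13, 0.08 and -0.11, and with ions -0.18, -0.01 and -0.06. The part of these shifts in the brush border results was not tested beyond the scaling given with them.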

How the results depend on the processing

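Against medium, the 12 genes lower at 25 µg/mL became 27 whether scaled to the poly-A or to the hybridization controls. Of all 19775 genes, 14081 and 12835 were then lower. The 3 higher became 0 and 1, where 179 and 508 of all genes were higher. Asking for at least 1.5-fold left 1 higher. The share of all genes at 1.5-fold is not given, so no count at that threshold can be set against a background. CDHR5 (1.34-fold), VIL1 (1.41), SLC15A1 (1.30) and SLC46A1 (1.37) then no longer counted as lower. Against 2.5 µg/mL, 2 higher became 0, 0 and 1 in that order and 15 lower became 29 under poly-A scaling and 9 at 1.5-fold. Against ions, 2 higher became 0, 1 and 1, and 11 lower became 29, 26 and 7. Of all genes, poly-A scaling made 16869 lower against 2.5 µg/mL and 17368 against ions. Hybridization scaling made 13817 lower against ions. The single hydrolase lower became 9 under both scalings and 2 under quantile normalization, median centring, trend or array weights. Of all genes, 3812, 4032, 3950 and 4102 were lower under the last 4 settings in that order. Without dim genes, 2 of the 4 hydrolases left were lower, where 3853 of the 12640 genes left were. The 5 transporters lower became 10 under both scalings and 3 at 1.5-fold or with the mean of probe sets. With the mean of probe sets, 3537 of all 19775 genes were lower. Under poly-A, then hybridization scaling, the class medians were -0.72 and -0.53 for hydrolases, -0.98 and -0.79 for transporters and -1.11 and -0.93 for the scaffold. Without dim genes they were -0.32 for the 4 hydrolases left and -0.41 for the 8 transporters left. With the mean of probe sets they were -0.16 for transporters and -0.37 for the scaffold. Leaving out each array in turn gave 10 to 13 members lower and 2 to 3 higher against medium, 13 to 15 lower against 2.5 µg/mL and 10 to 14 against ions. Of all 19775 genes, 3188 to 3999 were then lower and 2279 to 2957 higher against medium. Against 2.5 µg/mL 3472 to 4165 of all genes were lower, and against ions 2928 to 3719. By class against medium, leaving out arrays gave 1 to 2 hydrolases, 4 to 6 transporters and 5 to 6 scaffold genes lower. The class medians were -0.14 to -0.046, -0.43 to -0.26 and -0.55 to -0.46.

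Signs turned under poly-A and hybridization scaling for MGAM (-0.54 and -0.35), XPNPEP2 (-0.54 and -0.36), CDHR2 (-0.56 and -0.37), EZR (-0.37 and -0.19), SLC2A5 (-0.59 and -0.41), SLC6A19 (-0.23 and -0.046) and ANPEP (-0.40 and -0.21, not called in either). With another probe set they turned for ANPEP (-0.39), SLC2A5 (-0.47), SLC15A1 (0.14) and SLC46A1 (0.058), and, with neither value called, for MYO7B (0.06 and 0.19), SLC26A3 (0.11) and XPNPEP2 (-0.18). The cause was not tested. A sign that turned under scaling is not in itself a call. Under both scalings, EZR had the smallest absolute difference of the scaffold genes and SLC6A19 that of the transporters. Under the 19 settings other than scaling and thresholds, 11 of the 15 called genes kept their call, and the exceptions were EZR, MYO1A, SLC15A1 and SLC46A1 (adjusted p 0.051 by limma with the mean of probe sets). No paired analysis was possible because the labels give each array a letter of its own and no shared replicate number.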
